A study of Homo sapiens with 8 samples.

Results

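Chromosome 22 carried 2029 H3K27me3 islands in a pair of human lymphoma B-cell lines, 1233 in LY19Y646F and 796 in LY19WT, of 105576 islands in both lists together. They were chosen by position, as every island of either list on this chromosome (hg19) outside the immunoglobulin lambda locus from 22380001 to 23270000. The islands themselves are defined by the ChIP and input reads of these lists, and the chromosome was picked from their coverage, so coverage, number and overlap are given as descriptions without a test. LY19Y646F expressed EZH2-Y646F constitutively from a CMV promoter, and LY19WT carried wild-type EZH2. Both lines were untreated and at passages 10 to 15, with 3 replicates of ChIP and 1 input for each of them. Whether LY19WT carries an empty vector, and whether either line is a single clone, is not stated in the labels. Replicates were merged ahead of island calling, so each value below comes from 1 list per line and has no spread between replicates. Cell identity could not be checked from islands.

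H3K27me3, trimethylation of lysine 27 of histone H3, is written by Polycomb repressive complex 2, whose catalytic subunit is EZH2. The mark spreads over silent genes in domains and is bound by Polycomb repressive complex 1. Substitutions of tyrosine 646 in the catalytic SET domain of EZH2 recur in germinal-centre B-cell lymphoma and are known to favour conversion of the dimethylated to the trimethylated state. Chromosome 22 is acrocentric, with a repeat-rich short arm, and all islands lay in its mappable part between 16100201 and 51244200. Genes were not assigned to islands, because the islands are placed on hg19 and no annotation of that build was used, so regions are named by position.

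The depth behind the values was as follows. In the full lists, 17410034 ChIP and 3527109 input reads of LY19Y646F lay in 47432 islands, and 37556030 ChIP and 4949411 input reads of LY19WT lay in 58144 islands. On chromosome 22 the totals of ChIP reads in islands were close, at 531273 in LY19Y646F and 534442 in LY19WT, while input reads numbered 96899 in LY19Y646F and 66293 in LY19WT. This was 3.05% of the ChIP reads in islands of LY19Y646F and 1.42% of those of LY19WT. Intervals printed below are 95% intervals (exact Poisson for reads, exact binomial for shares of islands) and cover counting error only.

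H3K27me3 islands covered more of chromosome 22 in LY19Y646F than in LY19WT, although LY19Y646F covered less of the other autosomes. Over 34.25 Mb counted, islands covered 11.6 Mb (33.9%) in LY19Y646F and 7.54 Mb (22.02%) in LY19WT, a ratio of 1.54. On autosomes 1 to 21 the shares were 13.5% in LY19Y646F and 19.8% in LY19WT, a ratio of 0.680. By this ratio chromosome 22 ranked 1 of the 22 autosomes, ahead of chromosomes 21 (1.41), 20 (1.32), 17 (1.17) and 19 (1.09), and it is also the measure for which it was picked. Island density was 36.0 per Mb in LY19Y646F and 23.2 per Mb in LY19WT, against 16.7 per Mb in LY19Y646F and 20.7 per Mb in LY19WT on autosomes 1 to 21. The ratio was 1.34 when 45 to 50 Mb was left out, and 1.11 when only islands with an authors' fold of at least 2 were kept in both lists, with 20.7% and 18.6% covered in LY19Y646F and LY19WT. This cut left 679 islands of LY19Y646F and 554 of LY19WT on chromosome 22. On autosomes 1 to 21 it left 18788 of 46105 islands in LY19Y646F and 39211 of 57046 in LY19WT.

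**Figure D1:**
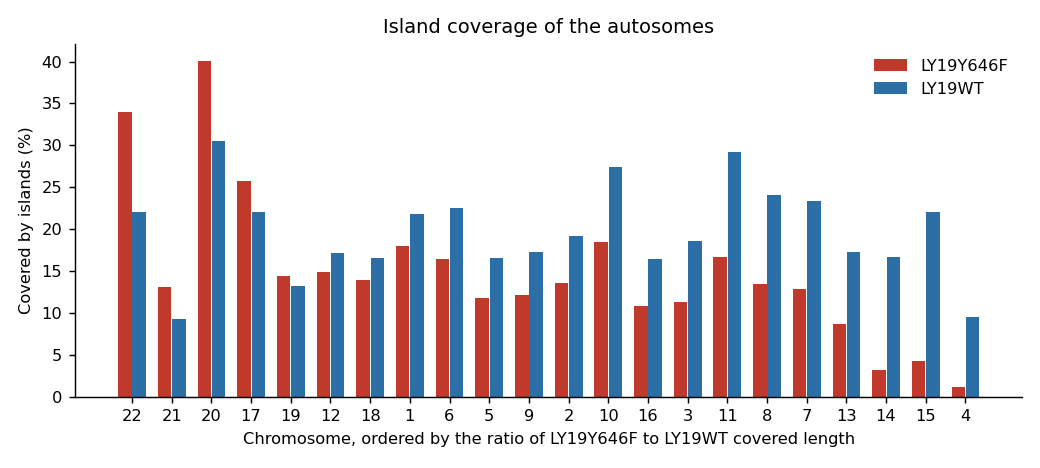
Percentage of each autosome covered by islands in LY19Y646F (left bar) and LY19WT (right bar), with chromosomes ordered by the ratio of covered length. Chromosome 22 stands first at 33.9% in LY19Y646F and 22.02% in LY19WT, and chromosome 4 last at a ratio of 0.127.

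Input density over the islands of chromosome 22 was close to the autosomal median in both lines. Median input density was 8.15 reads per kb in LY19Y646F (quartiles 7.08 and 9.23) and 8.64 reads per kb in LY19WT (quartiles 7.79 and 9.59). Relative to the autosomal median of each line this was 0.968 in LY19Y646F and 1.03 in LY19WT. Of the other chromosomes with a coverage ratio above 1, the relative input of LY19Y646F was 0.990 on chromosome 21, 1.19 on chromosome 20, 0.970 on chromosome 17 and 0.978 on chromosome 19. Median ChIP density over islands was 43.6 reads per kb in LY19Y646F (quartiles 40.7 and 47.0) and 59.9 in LY19WT (quartiles 53.3 and 68.8), so the interquartile ranges did not overlap. The same held on autosomes 1 to 21, at 41.7 in LY19Y646F (quartiles 38.8 and 45) and 57.3 in LY19WT (quartiles 51.5 and 65.5). The authors' fold, which divides ChIP by scaled input, had a median of 2.05 in LY19Y646F and 2.31 in LY19WT, against 1.90 in LY19Y646F and 2.28 in LY19WT on autosomes 1 to 21.

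Islands of LY19Y646F were called down to a lower read density. The 5th percentile of ChIP density on chromosome 22 was 36.9 reads per kb in LY19Y646F and 47.2 in LY19WT, and the lowest value was 30.9 in LY19Y646F and 38.2 in LY19WT. On autosomes 1 to 21 the 5th percentile was 35.35 reads per kb in LY19Y646F and 45.62 in LY19WT. At its median density a LY19Y646F island thus had fewer raw ChIP reads per kb than 95% of the islands of LY19WT. Library sizes are not stated in the labels or files. A place without an island may hold the mark below the calling limit of its line, and the part of this limit in the coverage difference was not tested.

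Along the chromosome the coverage of LY19Y646F was higher in 30 of 36 windows of 1 Mb and that of LY19WT in 6. Window coverage ran from 1.95% to 68.9% in LY19Y646F, with a median of 31.5%, and from 0% to 53.7% in LY19WT, with a median of 20.6%. The 6 windows led by LY19WT were those from 26 to 28 Mb, from 32 to 33 Mb and from 34 to 37 Mb. From 27 to 28 and from 32 to 33 Mb the lines stood close, at 48.2% and 36.1% in LY19Y646F and 48.6% and 37.3% in LY19WT. From 26 to 27 Mb coverage was 44.1% in LY19Y646F and 53.7% in LY19WT. The largest excesses of LY19WT lay from 34 to 37 Mb, with 11.2%, 17.9% and 23.9% in LY19Y646F and 23.6%, 32.8% and 47.3% in LY19WT. Near ties also occurred among the windows led by LY19Y646F. From 29 to 30 Mb the lines covered 25.6% and 25.3%, and from 42 to 43 Mb 25.2% and 24.8%, in LY19Y646F and LY19WT.

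**Figure D2:**
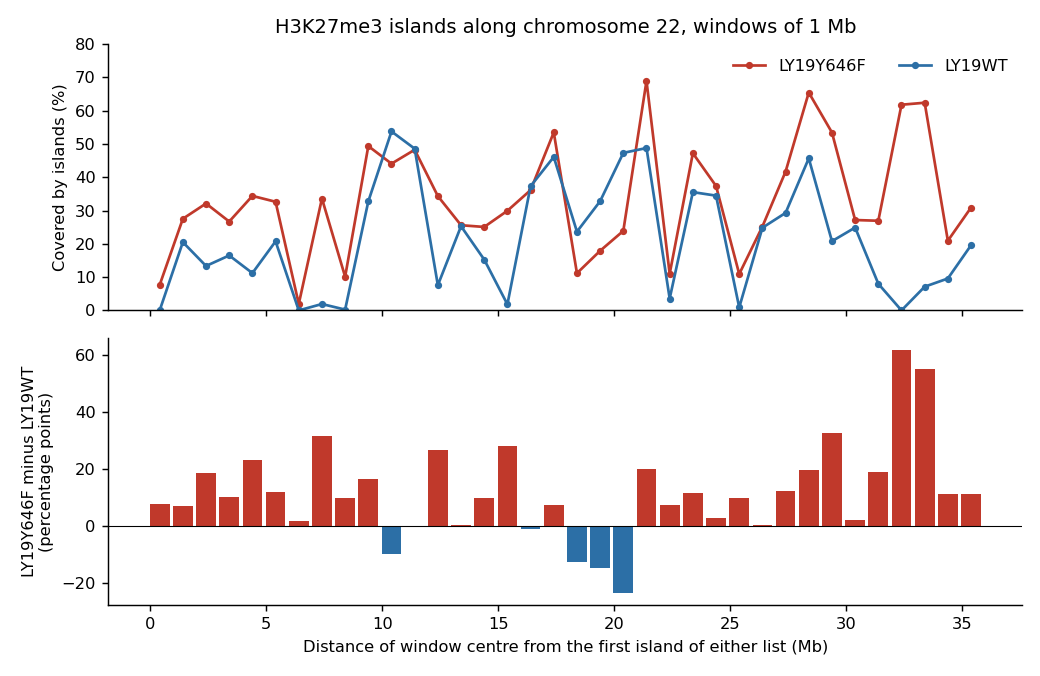
Upper panel, percentage of each 1 Mb window covered by islands in LY19Y646F and LY19WT; lower panel, the difference in percentage points, LY19Y646F minus LY19WT, against the distance of the window centre from the first island. LY19Y646F leads in 30 of 36 windows, and the tallest bars, near 32 and 33 Mb from the first island, mark the windows from 48 to 50 Mb.

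In bins of 5 Mb the excess of LY19Y646F was widest from 45 to 50 Mb. There 46.3% was covered in LY19Y646F and 12.2% in LY19WT, and the overlap measured by the Jaccard index (length shared over length covered in either line) was 0.155. This bin held 41.9% of the 4.08 Mb by which LY19Y646F covered more of the chromosome. From 35 to 40 Mb the lines covered the same share, 33.8% in LY19Y646F and 33.6% in LY19WT, although only 19.5% was covered in both. From 40 to 45 Mb the islands coincided best, with a Jaccard index of 0.531 at 36.1% covered in LY19Y646F and 27.0% in LY19WT. Coverage of LY19WT was lowest from 20 to 25 Mb, at 8.17%, where LY19Y646F covered 24.9%.

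Input density varied along the arm in both lines. In the 8 bins of 5 Mb from 15 Mb to the end, the relative input of LY19Y646F was 1.03, 1.06, 0.980, 0.979, 0.975, 0.940, 0.879 and 1.02, and that of LY19WT was 1.09, 1.09, 1.01, 0.991, 1.06, 1.01, 1.03 and 1.12. The lowest value of LY19Y646F was thus in the bin from 45 to 50 Mb, and the last bin was back above 1. Median ChIP density of LY19Y646F ran from 41.8 to 45.9 reads per kb over the bins and was 43.9 from 45 to 50 Mb. The median authors' fold from 45 to 50 Mb was 2.31 in LY19Y646F, the highest of its bins, and 2.26 in LY19WT. The part of the input in the fold of this bin was not tested.

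**Figure D3:**
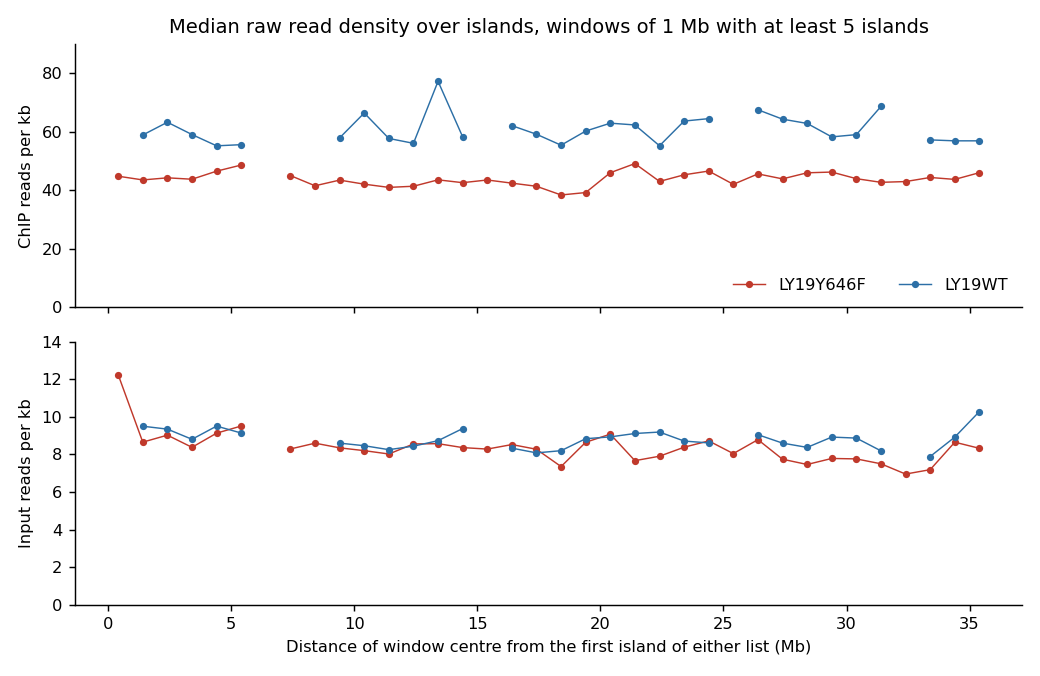
Median ChIP (upper) and input (lower) reads per kb over the islands of each 1 Mb window in LY19Y646F and LY19WT, for windows with at least 5 islands, against the distance from the first island. ChIP density of LY19Y646F lies below that of LY19WT in each window where both are plotted, while the input medians plotted lie between 6.95 and 12.2 in LY19Y646F and between 7.89 and 10.3 in LY19WT.

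In the full lists, islands of LY19Y646F were wider than those of LY19WT at the median and shorter at the extreme. The median width was 6.8 kb in LY19Y646F (quartiles 4.4 and 11.4 kb) and 5.6 kb in LY19WT (quartiles 3.4 and 10.2 kb), against 5.8 kb in each line on autosomes 1 to 21. Mean widths were 9.43 kb in LY19Y646F and 9.47 kb in LY19WT. The difference at the median depended on the list. At an authors' fold of at least 2 the medians were 7.2 kb in LY19Y646F and 7 kb in LY19WT. With the LY19WT list shortened to the genome-wide covered length of LY19Y646F they were 6.8 kb and 12.2 kb. Only LY19WT was cut to its best-ranked islands there, so these medians do not compare lists treated alike. In the full lists, islands over 10 kb numbered 364 in LY19Y646F and 200 in LY19WT, and islands over 20 kb 102 in LY19Y646F and 82 in LY19WT. By share of covered length LY19WT was ahead in both classes. Islands over 10 kb held 58.5% in LY19Y646F and 62.1% in LY19WT, and those over 20 kb 26.7% and 40.5%. By number the order turned above 50 kb, at 6 islands (4.14% of covered length) in LY19Y646F and 12 (13.1%) in LY19WT. On autosomes 1 to 21, islands over 50 kb held 4.19% of the covered length in LY19Y646F and 12.65% in LY19WT. The median gap between neighbouring islands was 3.2 kb in LY19Y646F and 5.0 kb in LY19WT. Gaps over 500 kb numbered 3 in LY19Y646F and 7 in LY19WT, and gaps over 200 kb took up 8.35 Mb in LY19Y646F and 14.1 Mb in LY19WT.

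At an overlap of at least 1 bp, most LY19WT islands of chromosome 22 met one of LY19Y646F, and a large share of the LY19Y646F islands stood alone. Of the LY19Y646F islands, 646 (52.4%, interval 49.6 to 55.2) overlapped a LY19WT island by at least 1 bp and 587 (47.6%) had no base in the other line, against 43.4% alone over all autosomes. Of the LY19WT islands, 610 (76.6%, interval 73.5 to 79.5) overlapped and 186 (23.4%) stood alone, against 60.7% alone over all autosomes. At an overlap of at least 50% of both islands, the shares that matched were 18.7% of LY19Y646F and 28.9% of LY19WT islands. Against a LY19WT list shortened to the genome-wide covered length of LY19Y646F, 32.85% of LY19Y646F islands and 84.97% of the remaining LY19WT islands overlapped by at least 1 bp. With the full lists, the length covered in both lines was 5.06 Mb, which was 43.5% of the LY19Y646F and 67.1% of the LY19WT length. The product of the 2 covered shares gives 2.56 Mb. On autosomes 1 to 21 the shared length was 179.3 Mb and the product 73.5 Mb. Shared length cannot exceed the shorter covered length, so its largest possible multiple of the product falls as coverage rises. The multiples were therefore not compared between chromosome 22 and the other autosomes. The Jaccard index of 0.358 ranked 3 among the autosomes, after chromosomes 20 (0.457) and 17 (0.364), and the index of autosomes 1 to 21 was 0.243.

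Islands that stood alone were narrower in each line, and in LY19Y646F their median fold was close to that of the overlapping islands. The 587 lone islands of LY19Y646F measured 5.8 kb at the median, with a median fold of 2.05 and 42.8 ChIP reads per kb, against 7.8 kb, 2.05 and 44.5 reads per kb for the 646 that overlapped. Their median input density was 7.93 reads per kb against 8.25 for the overlapping islands, so ChIP and input were both lower in the lone islands. The 186 lone islands of LY19WT measured 4.0 kb at the median, with a fold of 2.26, against 6.4 kb and 2.35 for the 610 that overlapped. Of the lone islands, 281 in LY19Y646F lay at least 100 kb from any LY19WT island, and 28 in LY19WT lay that far from LY19Y646F. Distances were not computed on the other autosomes, so these counts cannot be called particular to chromosome 22. The median distance to the other line was 84.6 kb for all lone LY19Y646F islands and 15.4 kb for all lone LY19WT islands. Such distances also depend on how many islands the other list holds, 1233 in LY19Y646F and 796 in LY19WT.

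Overlap was more frequent among wider islands. In LY19Y646F it was 40.7% (165 of 405) up to 5 kb, 51.1% (237 of 464) from 5 to 10 kb, 61.1% (160 of 262) from 10 to 20 kb and 81.3% (78 of 96) from 20 to 50 kb. In LY19WT the same classes gave 67.0% (244 of 364), 80.6% (187 of 232), 89.0% (105 of 118) and 92.9% (65 of 70). A wider island has more room to meet another, so a rise with width is in part built into this measure. All 6 LY19Y646F islands over 50 kb and 9 of 12 in LY19WT met an island of the other line, and the 3 that did not lay next to each other from 36103001 to 36413800. Most islands that overlapped met a single island of the other line, 513 of 646 in LY19Y646F and 474 of 610 in LY19WT. The other 133 in LY19Y646F and 136 in LY19WT met at least 2, and their median widths were 14.8 kb in LY19Y646F and 15.7 kb in LY19WT.

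Differences of at least 50 percentage points in windows of 100 kb were mostly in the direction of LY19Y646F. Of 342 windows, 33 (9.65%) were covered by that much more in LY19Y646F, against 2.63% of windows over all autosomes. The opposite difference was found in 6 windows (1.75%), against 9.58% over all autosomes. A further 51 windows (14.9%) were covered to at least 50% in both lines, against 5% over all autosomes. Any excess of LY19Y646F was seen in 219 windows (64.0%) and any excess of LY19WT in 71 (20.8%), against 26.5% and 36.5% on autosomes 1 to 21. Islands of LY19Y646F alone lay in 84 windows and of LY19WT alone in 22, against 3635 and 5103 of 27586 on autosomes 1 to 21. A further 51 windows were empty in both lines, against 10178 of those 27586. The 33 windows formed 14 stretches, 9 of them of a single window.

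The longest of these stretches, from 48200001 to 49700000, had islands over 73.8% of its length in LY19Y646F and over 0.480% in LY19WT. LY19Y646F had 102 islands there with 50178 ChIP and 7986 input reads, and LY19WT had 2 islands with 428 ChIP and 58 input reads. The ChIP density of LY19Y646F, 45.1 reads per kb, was close to its 45.7 over all its islands of the chromosome, at a relative input of 0.816 and a median fold of 2.46. Up to 49500000 this stretch lies in the longest gap of LY19WT, which began at 47642401, where 1858 kb held no LY19WT island and LY19Y646F had 130 islands over 64.9% of the length. The input of LY19WT was counted only inside islands, so it is not known here for this gap. Left out of the chromosome, this stretch lowered the ratio of covered shares to 1.40.

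**Figure D4:**
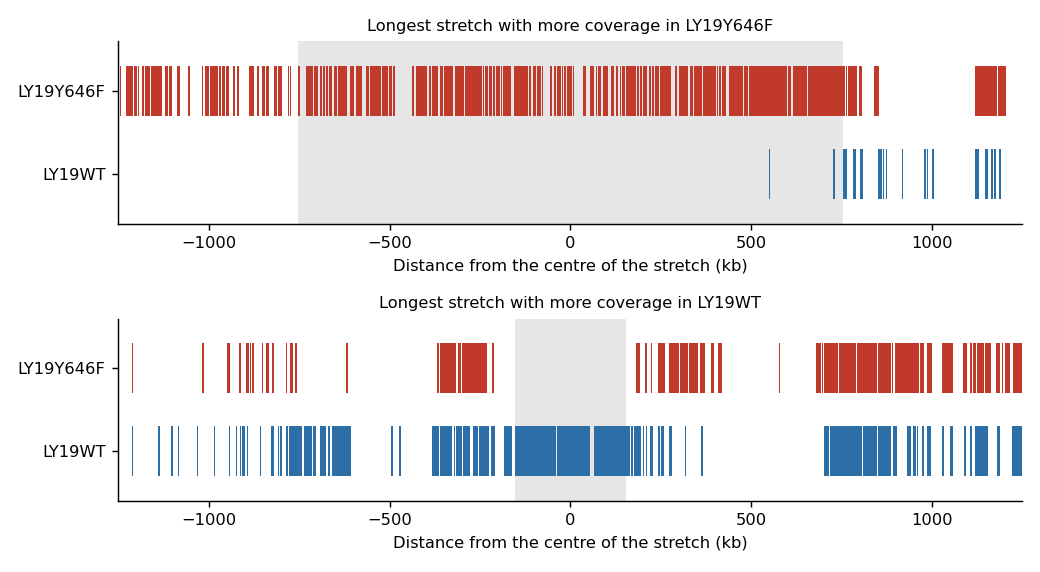
Islands of LY19Y646F (upper row) and LY19WT (lower row) as blocks on both sides of the centre of the longest stretch led by each line, shaded grey. In the upper panel 102 LY19Y646F islands meet 2 of LY19WT in the shaded 1500 kb, and in the lower panel the shaded 300 kb hold 5 LY19WT islands and none of LY19Y646F.

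The next 4 stretches led by LY19Y646F were 200 to 300 kb long. From 33700001 to 34000000, 67.8% was covered in LY19Y646F by 26 islands and no LY19WT island lay there. From 45200001 to 45400000 coverage was 81.0% in LY19Y646F and 2.70% in LY19WT, and from 31100001 to 31300000 it was 65.7% in LY19Y646F and 1.00% in LY19WT. LY19Y646F covered 56.5% from 23700001 to 23900000, again with no LY19WT island. Relative input of LY19Y646F in these 4 stretches was 0.995, 0.833, 1.00 and 1.02, and median folds ran from 1.91 to 2.68. Each was called as 13 to 26 islands, the widest of them 35.8 kb. Gaps between LY19Y646F islands of the chromosome were as short as 0.8 kb. Whether neighbouring islands form 1 domain was not tested.

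The broadest islands of LY19Y646F without any LY19WT base lay in the distal part of the arm. The longest ran from 45330601 to 45366400 (35.8 kb) with 52.0 ChIP reads per kb (interval 49.7 to 54.5) and a fold of 2.68. The next, from 49626801 to 49661600 (34.8 kb), had 48.4 reads per kb (46.1 to 50.8) and a fold of 2.48. The following 3, of 31.8, 30.6 and 28.8 kb, began at 48522801, 48657801 and 48396801 with folds of 2.16, 2.15 and 1.86, and lay 754 to 880 kb from the nearest LY19WT island. The highest fold of LY19Y646F among islands of at least 5 kb, 4.08, was also in this part, from 48762601 to 48769600, on 363 ChIP and 34 input reads. Its ChIP density of 51.9 reads per kb (46.7 to 57.5) was above the upper quartile of LY19Y646F on the chromosome, 47.0, and its relative input was 0.577.

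Domains of LY19WT alone were few, and the largest was broad and dense in ChIP reads. From 36100001 to 36400000, 95% was covered in LY19WT by 5 islands and no LY19Y646F island lay there. The 3 longest of these islands ran from 36103001 to 36211200 (108.2 kb, fold 3.95), from 36212001 to 36281800 (69.8 kb, fold 2.87) and from 36315601 to 36413800 (98.2 kb, fold 2.997). The first had 11095 ChIP reads, or 102.5 per kb (interval 100.6 to 104.5), against a LY19WT median of 59.9 per kb on the chromosome, at a relative input of 1.01. Islands of LY19Y646F lay on both sides, at 64.0 kb from the first and 17.4 kb from the last of these 3 islands.

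The other stretches led by LY19WT were smaller. From 34400001 to 34600000, LY19WT covered 55.8% by 14 islands, and from 35500001 to 35600000 it covered 72.0% by 8 islands, with no LY19Y646F island in either. Median folds of LY19WT were 2.14 and 2.29 and relative inputs 0.983 and 1.11. The first of them fell in the longest gap of LY19Y646F, from 34328601 to 35037000, in which 30 LY19WT islands covered 32.0%. Another long gap was common to the lines at its start, since it began at 40436201 in LY19Y646F and at 40437201 in LY19WT. It ended at 41058200 in LY19Y646F and at 41952000 in LY19WT.

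The broadest domains of LY19WT that LY19Y646F also covered were split into several islands in LY19Y646F. The longest LY19WT island, from 40124601 to 40238400 (113.8 kb), had 101.9 ChIP reads per kb and was covered to 91.0% by 7 LY19Y646F islands with 47.9 reads per kb. The island from 42740201 to 42833000 had a fold of 4.14 and was covered to 74.8% by 6 LY19Y646F islands with folds from 1.83 to 2.50. The island from 29564201 to 29651000 had a fold of 3.83 and was covered to 85.7% by 9 LY19Y646F islands with folds from 1.597 to 2.42. The LY19Y646F islands over the first of them began at 40100001, before the LY19WT island, and those over the other 2 lay within the limits of the LY19WT island. The highest LY19WT fold among islands of at least 5 kb, 5.65 from 51081401 to 51086400 at 236.2 reads per kb, lay inside a single LY19Y646F island of 42.4 kb with a fold of 1.72.

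The reverse was found for the longest LY19Y646F island. It ran from 43628401 to 43738000 (109.6 kb) with 57.7 ChIP reads per kb (56.3 to 59.2) and a fold of 2.83, and 9 LY19WT islands of 2.0 to 26.2 kb covered 70.4% of it. The second, from 49443401 to 49545000 (101.6 kb, fold 2.54), met a single LY19WT island of 2.2 kb over 2.17% of its length. The next 2 lay from 18762401 to 18843600 and from 21568801 to 21646000, and LY19WT covered 63.05% and 79.0% of them. Their relative input in LY19Y646F was 1.66 and 1.90, and the LY19WT islands over them had 11.8 and 13.8 input reads per kb, so input stood above the autosomal median in both lines at these places. Folds there were 2.202 and 2.02 in LY19Y646F.

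Where single islands of the lines matched, enrichment over input was mostly lower in LY19Y646F. Of 230 pairs that overlapped by at least 50% of both islands, 166 (72.2%) had the lower authors' fold in LY19Y646F, against 72.7% over all autosomes, so chromosome 22 stood at the background. The median fold in these pairs was 2.10 in LY19Y646F and 2.43 in LY19WT, and the log2 ratio between them (LY19Y646F over LY19WT) had a median of -0.22 (quartiles -0.50 and 0.03), against -0.27 on autosomes 1 to 21. Scaled by all ChIP reads in islands instead of by input, the median log2 ratio was 0.60, against 0.55 on autosomes 1 to 21, so the direction depends on the scaling. Median ChIP density was 44.9 reads per kb in LY19Y646F and 63.3 in LY19WT, and median input density 8.33 reads per kb in LY19Y646F and 8.60 in LY19WT. Raw ChIP density was lower in LY19Y646F in 227 of the 230 pairs (98.7%), against 98.4% of pairs on autosomes 1 to 21. By this measure too chromosome 22 stood at the background.

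Matching by at least 50% of both islands keeps the widths of a pair within a factor of 2 by construction. The median width was 9.4 kb in LY19Y646F and 8.5 kb in LY19WT, and the LY19Y646F island was the wider in 123 pairs, the narrower in 101 and equal in 6. On autosomes 1 to 21 the order was the other way, at 7.4 kb in LY19Y646F and 7.8 kb in LY19WT. There the LY19Y646F island was the wider in 3790 of 8132 pairs and the narrower in 4099. On chromosome 22 starts lay within 1 kb of each other in 105 of 230 pairs, ends in 86 and both edges in 37. On autosomes 1 to 21 these numbers were 3656, 3662 and 1614 of 8132. From 15 to 25 Mb, 26 of 36 LY19Y646F islands were the wider, and from 45 to 55 Mb 19 of 30, whereas from 25 to 35 and 35 to 45 Mb 37 of 81 and 41 of 83 were. The widest pair ran from 36996401 to 37040400 in LY19Y646F and from 36968801 to 37055600 in LY19WT, with a fold of 2.34 in LY19Y646F and 3.10 in LY19WT. The pair from 40297201 to 40348200 in LY19Y646F and from 40296201 to 40339400 in LY19WT had a fold of 2.04 in LY19Y646F and 3.93 in LY19WT.

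**Figure D5:**
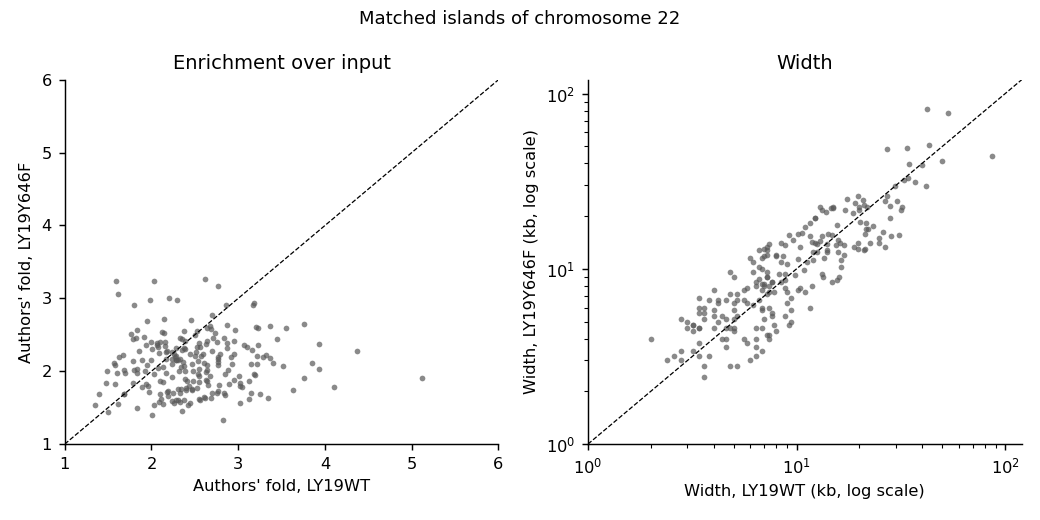
Each point is 1 of 230 matched islands, with LY19Y646F on the vertical and LY19WT on the horizontal axis. Left, the authors' fold, with 166 points below the dashed line of equality; right, width on log axes, with 123 points above it.

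The edges of the member list were as follows. The last islands before the left-out locus ran from 22341801 to 22345600 in LY19Y646F (fold 1.79) and from 21913401 to 21916200 in LY19WT (fold 1.64). The first after it began at 23308801 in LY19Y646F (fold 2.28) and at 23392201 in LY19WT (fold 1.57). The locus itself held 37 islands of LY19Y646F and 12 of LY19WT, none across its edges, and the outermost of them had folds of 2.36 and 1.57 in LY19Y646F and of 1.42 and 2.21 in LY19WT. At the other limit of the list, the calling threshold, the weakest island by FDR had a fold of 1.33 on 136 ChIP reads in LY19Y646F and of 1.40 on 116 in LY19WT. The first LY19Y646F island of the chromosome, from 16100201 to 16118600, had the lowest fold, 1.17, at a relative input of 1.85, and lay 1232 kb before the first LY19WT island.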

How the data were processed

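Islands of H3K27me3 ChIP-seq were analysed from 1 list per line. The submitters' processing notes name hg19, SICER and bedtools (versions not given in the sources used here), SAMtools 1.3.1 and Bowtie2 2.2.9, with no role or order. Per the labels, replicates were merged and islands kept at an FDR of 0.001. The deposited counts are raw ChIP and input reads per island. The fold deposited with them is a ratio on a linear scale, ChIP over input divided by 1 constant per list (2.62 in LY19Y646F, 3.07 in LY19WT, recovered from the values). The deposited p-value and the FDR come from the authors' island caller and served to filter or rank islands within a list. Read densities, widths, coverage and overlaps were computed from the coordinates, given 1-based, with Python 3.11.15, scipy 1.17.1, pandas 2.3.3 and numpy 2.4.6. Planted lengths and overlaps were recovered from simulated islands that lay far apart, each meeting a single other island at most. Islands that meet several others, window counts and read densities were not part of that simulation. Islands touching the left-out locus were dropped. With merged replicates no test between the lines was possible. Named regions were the 5 longest islands per line, the 5 longest alone, the highest fold, the 5 largest stretches of 100 kb windows per direction and the widest matched pairs. The edge islands, weakest islands and long gaps were named after their values were seen. The chromosome and the lists were chosen with earlier results of these data known. Genes were not analysed here, since no annotation on hg19 was at hand.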

Additional observations from a re-analysis of the deposited data

How the results depend on the processing

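Where both lists were treated alike, LY19Y646F covered more of chromosome 22 than LY19WT in each alternative run, at ratios from 1.11 to 1.57. The ratio of 2.15 came from shortening the LY19WT list alone, which could only raise it. The input filter removed no island, so it repeated the main ratio. Limits on FDR of 1e-05 and 1e-10 gave 33.5% and 31.9% in LY19Y646F and 21.8% and 21.2% in LY19WT. A fold of at least 1.5 gave 32.3% and 21.6% in LY19Y646F and LY19WT, and keeping the left-out locus gave 21.7% in LY19WT. With neighbours up to 5 kb apart joined, the lists gave 37.8% and 24.2% covered, 494 and 396 islands and overlaps of 56.3% and 80.3% of islands in LY19Y646F and LY19WT, with a median width of 14 kb in LY19Y646F. Keeping the best-ranked LY19WT islands up to the genome-wide length of the LY19Y646F list left 306 LY19WT islands of 12.2 kb median width over 15.8%, with overlaps of 32.85% of LY19Y646F and 84.97% of LY19WT islands, and ratios of 2.15 for coverage and 4.03 for number. The order of median widths was reversed with that shortened list, at 6.8 kb in LY19Y646F and 12.2 kb in LY19WT. Only LY19WT was cut by rank there, so this reversal is not a comparison of lists treated alike. With that list, a comparison chosen after seeing the data, 50 windows were led by LY19Y646F. Chosen after seeing the data, a fold of at least 2 left 679 LY19Y646F islands and coverages of 20.7% and 18.6% (ratio 1.11) in LY19Y646F and LY19WT. Overlaps at this fold were 44.2% and 53.4%, and median widths 7.2 and 7 kb, in LY19Y646F and LY19WT. Also chosen after seeing the data, the ratio was 1.34 without 45 to 50 Mb and 1.40 without the longest stretch. Overlap of at least 50% of the island was met by 41.3% of LY19Y646F and 68.5% of LY19WT islands, and of both islands by 18.7% and 28.9%. Windows of 500 kb gave 4 led by LY19Y646F, and a difference of 30 points gave 71 led by LY19Y646F and 17 by LY19WT. The log2 ratio of matched islands reversed to 0.60 when scaled by total ChIP reads in islands, was -0.51 from raw densities and -0.31 at an overlap of 80%. Summed reads gave 70.9 ChIP reads per kb in LY19WT. Where no reason follows from the construction of an alternative, the cause was not tested. Leaving out islands with input over 3 times the median removed none. The gene comparisons were not run, for want of an hg19 annotation. Replicates could not be left out, since each list is merged. No paired analysis was possible because the replicates carry no columns of their own.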
